A study of Mus musculus with 10 samples.

Results

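The let-7 and miR-98 guide arms are the 9 mature miRNAs let-7a-5p, let-7b-5p, let-7c-5p, let-7d-5p, let-7e-5p, let-7f-5p, let-7g-5p, let-7i-5p, and also miR-98-5p. They were taken by name from the 721 mature miRNAs listed for vesicles of brown adipose tissue (BAT) or plasma. No cut on their values was applied, but earlier results of these data were known when the family was chosen. All 9 are listed for both sources, among 679 miRNAs for BAT and 436 for plasma. Small extracellular vesicles are membrane particles that cells release with RNA inside. They came from C57BL/6J mice labelled Sed or Exe, and the series compares the vesicle miRNAs before and after exercise. The plasma libraries are also described as wt, a usual short form of wild type, and the descriptions of the BAT libraries lack it. There were 3 Sed BAT, 3 Exe BAT, 2 Sed plasma and 2 Exe plasma libraries. The Sed title is taken to mean untrained mice, although every sample, Sed included, is labelled with 2 daily sessions of 90 min over 4 weeks. The sources used here do not give age, sex or whether a library came from 1 animal or a pool, so the spread behind each p-value is that between libraries and may be technical.

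A miRNA guides an Argonaute protein to messenger RNAs that pair with its seed, a short stretch near the 5′ end, and lowers their translation and stability. The let-7 family rises as cells differentiate and is known to restrain growth regulators such as Hmga2, Myc, Ras genes and the insulin and IGF receptors, while LIN28 proteins block maturation of its precursors. In fat cells let-7i-5p has been reported to restrain the thermogenic programme. Because the members share a seed they are thought to share many targets, so both the family total and its make-up are described.

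The mature sequences are shown because the family is defined by the seed and because neighbours in sequence can exchange reads. They are from RefSeq for GRCm38.p6, written 5′ to 3′, with the seed (bases 2 to 8) in capitals.
let-7a-5p: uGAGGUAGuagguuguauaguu
let-7b-5p: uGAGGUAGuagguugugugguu
let-7c-5p: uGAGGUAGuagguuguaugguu
let-7d-5p: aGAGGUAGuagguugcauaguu
let-7e-5p: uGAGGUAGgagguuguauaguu
let-7f-5p: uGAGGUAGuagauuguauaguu
let-7g-5p: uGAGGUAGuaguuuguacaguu
let-7i-5p: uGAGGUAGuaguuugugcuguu
miR-98-5p: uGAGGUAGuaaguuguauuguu

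All 9 are 22 bases long and carry 1 seed, so they form a single seed group. Relative to let-7a-5p, with positions counted from 1 at the 5′ end, let-7c-5p carries A19G, let-7b-5p carries A17G and A19G, let-7e-5p carries U9G, and let-7f-5p carries G12A. The change in let-7d-5p is U1A and U16C, in let-7g-5p G12U and U18C, in miR-98-5p G11A and A19U, and in let-7i-5p G12U, A17G, U18C and A19U. Of the 36 pairs of members, 4 differ by 1 base: let-7a with let-7c, let-7e and let-7f, and let-7b with let-7c. A sequencing error or a permissive alignment could move reads within those pairs, and the sources used here do not give the counting rules, so the split among these members is uncertain, while their sum does not change with such moves. Of the 605 measured miRNAs with a RefSeq sequence, let-7k was the 1 other with this seed, and it had 1 BAT read and 2 plasma reads in all.

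The members come from 12 hairpin genes on 7 chromosomes (GENCODE M21, build GRCm38; the deposited tables hold no coordinates). Mirlet7c-2 (chr15:85706603-85706697) and Mirlet7b (chr15:85707319-85707403) lie in an exon of the noncoding gene Lncppara. Mirlet7c-1 (chr16:77599657-77599750) lies in an intron of Mir99ahg beside Mir99a. Mirlet7a-1 (chr13:48538179-48538272), Mirlet7f-1 (chr13:48537829-48537917) and Mirlet7d (chr13:48536012-48536114) share the long noncoding gene 6720427I07Rik, and Mirlet7a-2 (chr9:41536716-41536811) sits beside Mir100. Single genes give let-7g-5p (chr9:106178840-106178927, an intron of Wdr82), let-7i-5p (chr10:122985640-122985724) and let-7e-5p (chr17:17830352-17830444, an intron of Spaca6, beside Mir125a). Mirlet7f-2 (chrX:151912346-151912428) and Mir98 (chrX:151913214-151913321) lie in an intron of Huwe1. Reads of let-7a, let-7c and let-7f guide arms cannot be assigned to 1 of their 2 genes.

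The BAT libraries held 104064 to 172279 miRNA reads and the plasma libraries 1209116 to 1798169. The RPM values of BAT, reads scaled by a library total, imply totals far above the miRNA reads of every BAT library. Each BAT share given here is thus of a small part of that total, and this part varied in size. Sed BAT replicate 2 had the fewest miRNA reads (104064) and the largest implied total. Whether the size of this part affects the shares was not tested. Brown fat marker miRNAs, all 7 of them listed for BAT, together took 23.0% to 30.1% of reads in Exe BAT and 6.69% to 23.3% in Sed BAT, with miR-196a-5p at 0 in replicate 2 of each group. The sum includes miR-378a-3p, the top miRNA of every BAT library but Sed replicate 2, and the markers differed in direction. Log2 fold changes of Exe against Sed were 1.57 for miR-455-3p, 1.17 for miR-193b-3p and 0.73 for miR-378a-3p. They were -1.08 for miR-365-3p, -0.69 for miR-193a-3p and -0.12 for miR-455-5p. Sed BAT replicate 2 stood apart, with the 6.69% and with miR-126a-3p rather than miR-378a-3p as its top miRNA. In plasma the red cell markers took 52.8% and 70.1% of reads in Sed and 13.9% and 14.8% in Exe, most of it miR-451a. Leukocyte markers took 0.211% and 0.156% of reads in Sed plasma replicates 1 and 2, with 3 of the 5 at 0 in replicate 1 and miR-155-5p at 0 in replicate 2. They took 2.25% and 1.98% of reads in Exe plasma replicates 1 and 2, with miR-142a-3p at 0 in replicate 2. Sed plasma replicate 2 also stood apart in a second whole number that the plasma table gives beside each read count, whose meaning is not stated: it summed to 84021 there against 405717 to 1078779 in the other plasma libraries.

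The family took a smaller share of BAT vesicle miRNA reads in Exe than in Sed and a larger share of plasma vesicle reads. The summed share was 15.6%, 26.2% and 11.99% in Sed BAT and 7.71%, 8.93% and 6.86% in Exe BAT. Every Exe BAT library lay below every Sed one, with means of 17.9% ± 7.36 and 7.83% ± 1.04 (SD, n = 3 each). The highest Sed value was that of replicate 2, the library with the smallest summed share of brown fat markers, and the Sed mean without it was 13.8%. In plasma the share was 7.30% and 13.4% in Sed and 38.2% and 40.7% in Exe. Both Exe plasma libraries lay above both Sed libraries, with means of 39.5% ± 1.79 and 10.3% ± 4.29 (SD, n = 2 each). Exact 95% Clopper-Pearson intervals of these shares spanned at most 0.535 percentage points, and they cover counting error only. Fewer vesicles that carry a miRNA and fewer copies per vesicle cannot be told apart in these values.

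A share falls when another miRNA takes more of the reads. miR-451a, an erythrocyte miRNA, took 69.8% and 52.8% of Sed plasma reads and 11.1% and 13.1% of Exe plasma reads. With miR-451a left out of the total, the family share was 24.2% and 28.3% in Sed plasma and 43.0% and 46.9% in Exe plasma, still without overlap, and the ratio of the group means fell. In BAT, where miR-451a took 3.34% to 7.02%, the means became 18.7% and 8.20%.

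**Figure D1:**
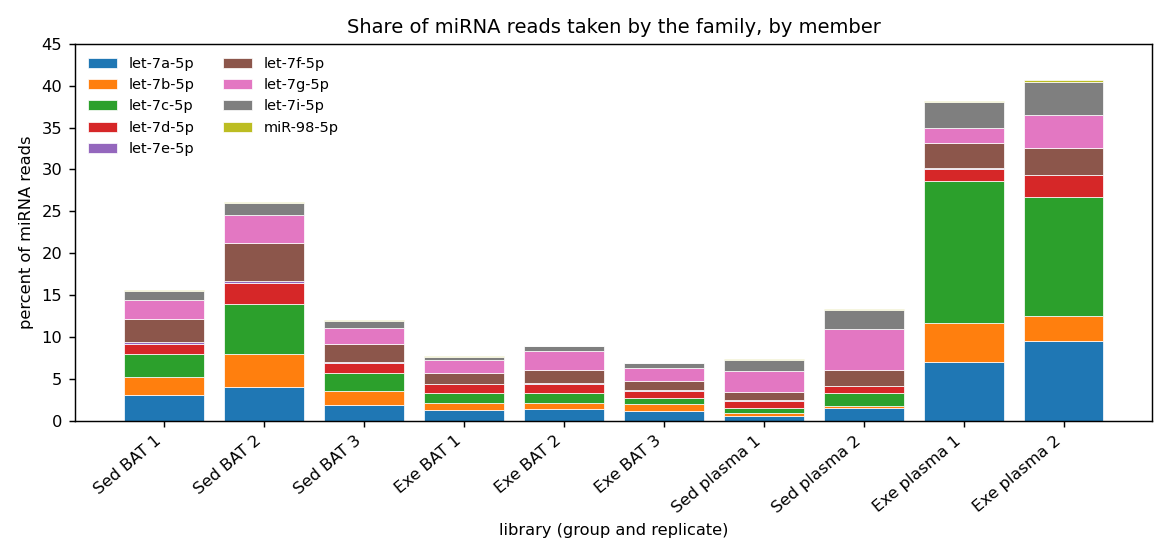
Share of miRNA reads (percent, vertical axis) taken by the family in each of the 10 libraries, with each bar divided by member. The 3 Exe BAT bars (6.86% to 8.93%) sit below the 3 Sed BAT bars, and the 2 Exe plasma bars (38.2% and 40.7%) stand above all others, mostly through let-7a, let-7b and let-7c.

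In BAT vesicles 6 of the 9 members fell in Exe and none rose. The guide arms of let-7b, let-7c, let-7i, let-7a, let-7f and miR-98 passed an adjusted p of 0.05 in edgeR's quasi-likelihood test, which compared all 199 miRNAs with enough reads. Of all miRNAs tested, 13.1% passed as lower and 9.55% as higher. The members' median log2 fold change was -1.01, beside -0.06 over all 199. In CPM, reads scaled by library total and TMM factor, 8 of the 9 members had every Exe library below every Sed library. let-7g-5p was the exception, and 23.1% of all miRNAs tested separated in that direction. On library totals implied by RPM, let-7a, let-7d, let-7e, let-7f, let-7i and miR-98 overlapped too. For each of them Exe replicate 2 lay above Sed replicate 3. There let-7b and let-7c alone stayed apart, and they were the 2 members past the edgeR threshold. On that scale the members' median log2 fold change was -0.81, beside 0.13 over all miRNAs.

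let-7c-5p and let-7b-5p fell most. Mirlet7c-2 and Mirlet7b lie together on chromosome 15, but let-7c-5p also comes from chromosome 16, and its reads cannot be assigned to either gene. The level of let-7c-5p was 29213, 46458 and 22803 CPM in Sed BAT and 12556, 11457 and 8336 CPM in Exe BAT. All Exe values lay below the lowest Sed value, and Sed replicate 2 was the highest. Its log2 fold change was -1.61 ± 0.32 (SE), with an adjusted p of 0.0107 in edgeR's test. Without Exe BAT replicate 3, its lowest library, the log2 fold change was -1.33 and the adjusted p 0.0749.

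The level of let-7b-5p was 24272, 30759 and 17650.2 CPM in Sed BAT and 8499, 8391 and 8519 CPM in Exe BAT. The Exe libraries had an SD of 69.2 CPM and lay apart from all Sed libraries. The log2 fold change was -1.52 ± 0.26 (SE, edgeR adjusted p = 0.00753). It passed the threshold in all 15 alternative analyses of the BAT libraries, the only member to do so, with log2 fold changes between -1.69 and -1.23.

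The guide arms of let-7a, let-7f and let-7i each fell by about the median of the family. let-7a-5p stood at 32476, 31723 and 20035 CPM in Sed BAT and 12599.7, 13709 and 12893 CPM in Exe BAT. let-7f-5p stood at 30002, 35138 and 23214 CPM in Sed BAT and 12967, 16866 and 12185 CPM in Exe BAT. let-7i-5p, the member linked to thermogenic restraint, stood at 12235, 11396 and 9026 CPM in Sed BAT and 4590.46, 6119 and 5473 CPM in Exe BAT. None of the 3 overlapped between groups in CPM, and Sed replicate 3 was the lowest Sed library for each. Their log2 fold changes were -1.10 ± 0.26, -1.07 ± 0.26 and -1.01 ± 0.23 (SE), with edgeR adjusted p of 0.0154, 0.0173 and 0.0151. All 3 missed the threshold without Exe BAT replicate 1 (adjusted p of 0.0821, 0.0965 and 0.0788 in edgeR) and without Exe BAT replicate 3 (0.0966, 0.113 and 0.0881), and let-7a-5p also without Exe BAT replicate 2 (0.0518).

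The members that were scarce or moved little were those of miR-98, let-7e, let-7d and let-7g. miR-98-5p, encoded beside let-7f-2 on chromosome X, stood at 1179, 1327 and 959 CPM in Sed BAT and 629.5, 742 and 449 CPM in Exe BAT. It fell by 0.93 ± 0.27 (SE, log2, edgeR adjusted p = 0.0360) but passed in only 5 of the 15 alternatives, and in none that left out a library. let-7e-5p stood at 2019, 1741 and 1105 CPM in Sed BAT and 743, 1094 and 992 CPM in Exe BAT. Its groups touched closely, and its log2 fold change of -0.78 ± 0.29 (SE) gave an edgeR adjusted p of 0.0766.

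let-7d-5p stood at 13222, 20425 and 12397 CPM in Sed BAT and 10519, 11261 and 9082 CPM in Exe BAT, with a log2 fold change of -0.58 ± 0.26 (SE, edgeR adjusted p = 0.128). let-7g-5p stood at 24772, 26184 and 19952 CPM in Sed BAT and 15485, 22633 and 16793 CPM in Exe BAT, with a log2 fold change of -0.37 ± 0.25 (SE, edgeR adjusted p = 0.304). It alone overlapped in CPM, through Exe replicate 2, which lay above Sed replicate 3. Neither let-7d-5p nor let-7g-5p passed in any of the 15 alternatives.

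**Figure D2:**
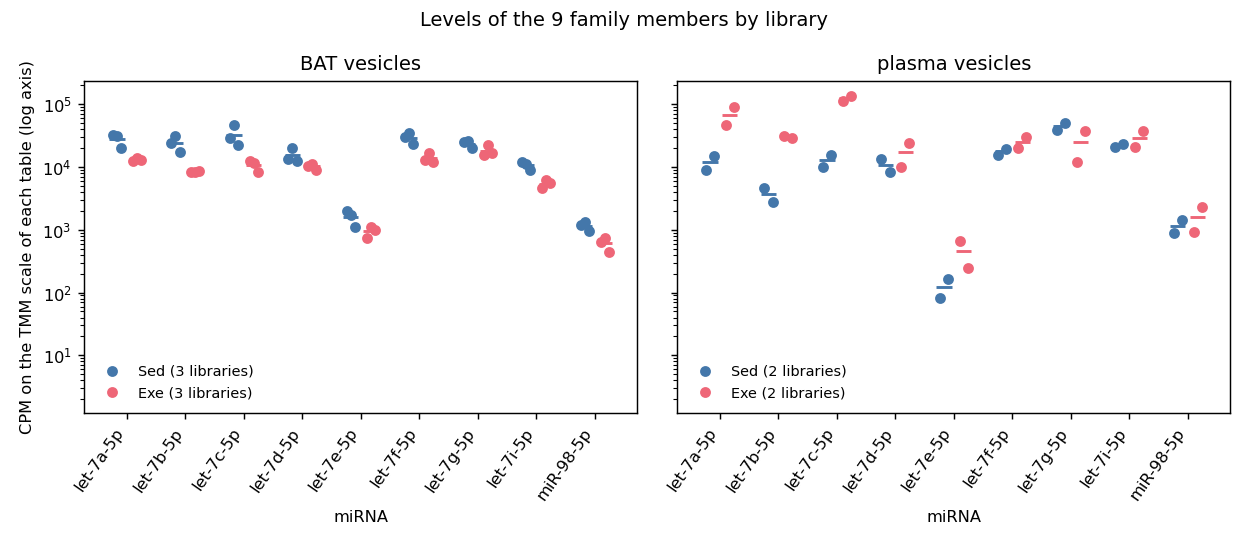
Level of each member in every library, in CPM on a log axis, with BAT vesicles on the left and plasma vesicles on the right. Points are libraries (3 per BAT group, 2 per plasma group) and short lines are group means. In BAT all members but let-7g-5p have Exe points below all Sed points, and in plasma let-7a-5p, let-7b-5p and let-7c-5p stand well above Sed.

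The make-up of the family in BAT vesicles held less let-7b and let-7c and more let-7d and let-7g in Exe. let-7g-5p made up 14.6%, 12.8% and 15.7% of family reads in Sed BAT and 19.7%, 24.5% and 22.5% in Exe BAT. let-7c-5p made up 17.2%, 22.6% and 17.9% in Sed BAT and 16.0%, 12.4% and 11.2% in Exe BAT. Exact 95% intervals of such shares were at most 1.66 percentage points wide in any library. Groups did not overlap for either miRNA, nor for let-7b-5p (means of 14.4% ± 0.559 and 10.4% ± 1.20, SD, n = 3) and let-7d-5p (9.17% ± 1.19 and 12.6% ± 0.696). The other 5 overlapped. Member shares depend on each other, and let-7d-5p and let-7g-5p took more of the family although their own log2 fold changes were -0.58 and -0.37. With 3 libraries against 3, a 2-sided exact permutation test cannot go below a p of 0.1, so these shares were not tested.

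The order of levels in BAT changed with the make-up. In Sed BAT the mean shares of miRNA reads ran let-7c, let-7f, let-7a, let-7b, let-7g, let-7d, let-7i, let-7e and miR-98, from 3.59% ± 2.04 to 0.123% ± 0.0412 (SD, n = 3). Only let-7i and let-7e had ranges that did not overlap among neighbours in that order. In Exe BAT the order ran let-7g, let-7f, let-7a, let-7c, let-7d, let-7b, let-7i, let-7e and miR-98, from 1.75% ± 0.381 to 0.0583% ± 0.0156. There each neighbouring pair from let-7d down to miR-98 was apart, and the first 5 overlapped from neighbour to neighbour. The first member was let-7a, let-7c and let-7f in Sed BAT replicates 1, 2 and 3, and let-7g in every Exe BAT library.

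In plasma vesicles let-7a-5p, let-7b-5p and let-7c-5p had the highest Exe levels relative to Sed, but no member passed the threshold in edgeR's test. Among all 182 miRNAs tested there, 0.0% passed, although 60 had an unadjusted p under 0.05, and 3 of these were let-7a, let-7b and let-7c. On the same reads DESeq2 called 57 miRNAs and limma-voom 35. Each called let-7b-5p and let-7c-5p as higher, beside 17.0% of miRNAs higher by DESeq2 and 7.69% by limma-voom. The CPM of 5 members (let-7a, let-7b, let-7c, let-7e and let-7f) lay higher in both Exe libraries than in both Sed libraries, beside 28.6% of all miRNAs tested. The members' median log2 fold change was 0.67 and that of all 182 was 0.32.

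let-7c-5p stood at 10159.5 and 15823 CPM in Sed plasma and 114651 and 135008 CPM in Exe plasma. Its read counts were 8741 and 27930 in Sed and 205666 and 252301 in Exe, and it was the most abundant of all miRNAs in both Exe plasma libraries. The groups were far apart and the log2 fold change was 3.26 ± 0.55 (SE), with an edgeR adjusted p of 0.0899. In 11 of 13 alternatives it passed, the exceptions being upper-quartile factors and TMM factors computed without the 9 members. These alternatives include leaving out each of the 4 plasma libraries. A group then has 1 library and no spread of its own, so those fits add little about let-7c-5p.

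let-7b-5p stood at 4585 and 2747 CPM in Sed plasma and 31411 and 28645 CPM in Exe plasma, a log2 fold change of 3.03 ± 0.65 (SE, edgeR adjusted p = 0.0899). let-7a-5p stood at 9079 and 14937 CPM in Sed plasma and 46831 and 89288 CPM in Exe plasma, a log2 fold change of 2.50 ± 0.63 (SE, edgeR adjusted p = 0.0899). Both were separated between groups, and they passed in 9 and 7 of the 13 alternatives, which again include fits with a lone library in a group. With the second whole number of the plasma table in place of reads, the log2 fold changes were 2.31 for let-7c, 2.31 for let-7b and 1.85 for let-7a, and all 3 passed.

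let-7g-5p, the leading member in both Sed plasma libraries, was the 1 member with a lower mean in Exe. It stood at 39184 and 49635 CPM in Sed plasma and 12190.1 and 38137 CPM in Exe plasma. Exe replicate 2 lay close under Sed replicate 1, and the log2 fold change of -0.82 ± 0.69 (SE) gave an edgeR adjusted p of 0.460. let-7e-5p was scarce, with 71 and 294 reads in Sed plasma against 1171 and 469 in Exe plasma, and its log2 fold change of 1.86 ± 1.73 (SE) had an error nearly as large (edgeR adjusted p = 0.493).

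The guide arms of let-7f, let-7i, let-7d and miR-98 had log2 fold changes of 0.49 ± 0.57, 0.39 ± 0.57, 0.67 ± 0.72 and 0.47 ± 1.17 (SE) in plasma, and none passed in any alternative. let-7f-5p went from 15769 and 19650.4 CPM to 19909 and 29746 CPM, narrowly apart. let-7i-5p went from 20670.0 and 23546 CPM to 20778 and 37093 CPM, and it overlapped, as did let-7d-5p and miR-98-5p. With upper-quartile factors these 4 lay below 0, at -0.48, -0.58, -0.23 and -0.55, and that scaling moved the median of all miRNAs by -0.91.

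**Figure D3:**
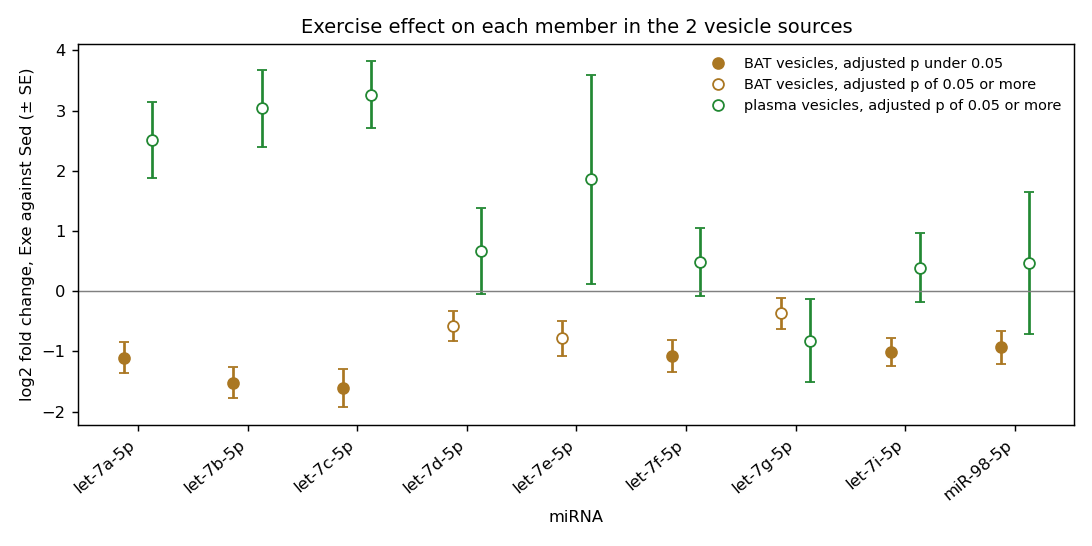
Log2 fold change of Exe against Sed for each member in BAT and plasma vesicles, with its SE, where filled points have an adjusted p under 0.05 in edgeR's test. In BAT all 9 lie below 0, from -0.37 (let-7g) to -1.61 (let-7c), and in plasma let-7c, let-7b and let-7a lie at 3.26, 3.03 and 2.50.

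Within the plasma family let-7g led in Sed and let-7c in Exe. let-7g-5p made up 34.4% and 36.4% of family reads in Sed plasma and 4.74% and 9.91% in Exe plasma. let-7c-5p made up 8.93% and 11.6% in Sed plasma and 44.5% and 35.1% in Exe plasma. let-7a-5p and let-7b-5p were also higher without overlap, with means of 9.47% and 20.7% for let-7a and 3.02% and 9.82% for let-7b (Sed, then Exe). let-7f, let-7i and miR-98 were lower without overlap, at 14.1% and 7.73%, 17.7% and 8.85%, and 0.916% and 0.476%. These shares do not depend on miR-451a or on any other miRNA outside the family, but they do depend on each other. A larger share of let-7c leaves less for the rest, and in CPM let-7f, let-7i and miR-98 were not lower (log2 fold changes of 0.49, 0.39 and 0.47). With 2 libraries per group the shares were not tested. With the second whole number of the plasma table, the let-7c share was 10.8% in Sed and 27.3% in Exe, and the let-7g share 31.2% and 9.78%.

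The order of mean levels in Sed plasma ran let-7g, let-7i, let-7f, let-7c, let-7a, let-7d, let-7b, miR-98 and let-7e, from 3.69% ± 1.67 to 0.0108% ± 0.00782 of miRNA reads (SD, n = 2). In Exe plasma it ran let-7c, let-7a, let-7b, let-7i, let-7f, let-7g, let-7d, miR-98 and let-7e, from 15.6% ± 1.93 to 0.0617% ± 0.0497. In Sed plasma the neighbours from let-7i to let-7d overlapped. In Exe plasma let-7c and let-7a stood apart from each other and from the rest, and let-7b to let-7d overlapped from neighbour to neighbour.

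The ratio of let-7c-5p to let-7g-5p reads within a library, chosen after the values were seen and given as a description, moved in opposite directions in the vesicle sources. It was 1.18, 1.77 and 1.14 in Sed BAT and 0.811, 0.506 and 0.496 in Exe BAT. It was 0.259 and 0.319 in Sed plasma and 9.41 and 3.54 in Exe plasma. Neither source overlapped between groups. The ratio of let-7c-5p to let-7b-5p, which differ by 1 base, moved little by comparison, with means of 1.34 ± 0.158 and 1.27 ± 0.262 in Sed and Exe BAT and 3.99 ± 2.51 and 4.18 ± 0.752 in Sed and Exe plasma (SD). let-7b and let-7c are the 2 members with a G at base 19, a grouping also set after the values were seen and given as a description. Together they made up 33.7% ± 3.43 of family reads in Sed BAT, 23.6% ± 2.80 in Exe BAT, 13.3% ± 0.478 in Sed plasma and 49.6% ± 10.1 in Exe plasma. Grouped likewise, let-7g and let-7i, the 2 with a U at base 12, had means of 21.0%, 28.8%, 53.2% and 16.2% in that order.

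**Figure D4:**
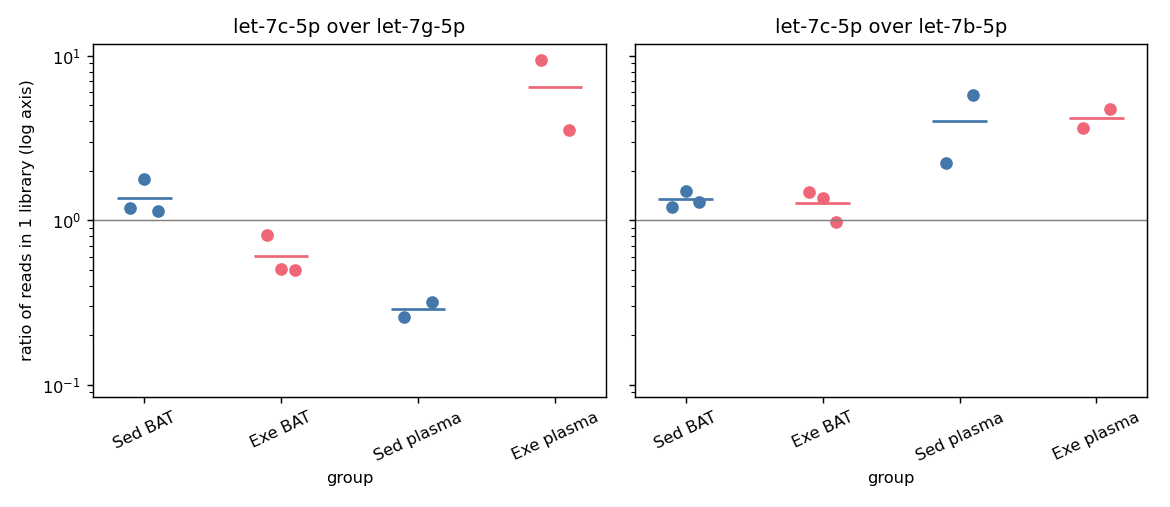
Ratio of reads of 2 members within each library on a log axis, let-7c over let-7g on the left and let-7c over let-7b on the right, with a point per library and a line at each group mean. let-7c over let-7g lies at 0.496 to 0.811 in Exe BAT against 1.14 to 1.77 in Sed BAT, and at 3.54 to 9.41 in Exe plasma against 0.259 to 0.319 in Sed plasma, while let-7c over let-7b overlaps between Sed and Exe in both sources.

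The exercise effects in BAT and plasma differed for 3 members by a test of the difference itself, in a joint edgeR fit of 234 miRNAs. The BAT effect minus the plasma effect was -4.37 ± 0.72 for let-7c-5p, -4.26 ± 0.62 for let-7b-5p and -2.99 ± 0.64 for let-7a-5p (log2, SE), with edgeR adjusted p of 0.00264, 0.00264 and 0.00665. Among all miRNAs tested, 12.4% had a lower effect in BAT and 16.7% a higher one. let-7c and let-7b passed in every alternative of this fit that kept at least 2 libraries per group. let-7a did so in all of these but limma-voom with 1 spread per source (adjusted p = 0.0585). The joint edgeR fit does not give each source its own spread. The mean Spearman correlation of a library with the others of its source was 0.898 to 0.920 in BAT and 0.566 to 0.638 in plasma. Calls among all miRNAs were 68 in edgeR, 50 in limma-voom and 25 in limma-voom with 1 spread per source. The other 6 did not pass, with differences of -2.28 for let-7e, -1.05 for let-7f, -0.86 for let-7i, -0.78 for let-7d, -0.74 for miR-98 and 1.10 for let-7g. With upper-quartile factors let-7d, let-7i and miR-98 lay just above 0, and with library size alone let-7g lay below it. Vesicle source and deposited table cannot be told apart here. The summed red cell and leukocyte markers given above also differed between Sed and Exe plasma. Among the red cell markers, miR-451a went the opposite way to miR-486a-5p and miR-486b-5p. The part of these markers in the difference of effects was not tested.

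Levels in BAT were set against plasma in the same joint fit. In Sed, 5 of 9 members were lower in BAT vesicles, led by let-7i-5p (log2 difference -3.32) and let-7g-5p (-3.22), with let-7d, let-7f and miR-98 at -1.67, -1.57 and -2.36. Among all miRNAs 20.1% were lower and 22.2% higher. The edgeR adjusted p of the 5 were 0.000179, 0.000386, 0.00710, 0.00988 and 0.0137. These calls depended on the scaling. With library size alone all 5 were lost, let-7i at -0.66 and let-7g at -0.55 (edgeR adjusted p of 0.167 and 0.306). There 7 of the 9 lay higher in BAT, 4 of them past the threshold (let-7a, let-7b, let-7c and let-7e), and the median of all miRNAs moved by 2.63. With a mean of at least 50 counts, let-7g and let-7i stayed lower and let-7b and let-7e passed as higher. In Exe, 8 of 9 were lower in BAT, beside 25.6% of all miRNAs lower and 41.0% higher. They ran from -5.37 for let-7c, -4.18 for let-7i and -4.12 for let-7a to -2.12 for let-7g, and let-7e, at -0.97, did not pass (edgeR adjusted p = 0.301). let-7g missed the threshold with upper-quartile factors, library size alone and a mean of at least 50 counts (log2 differences of -1.12, -0.72 and -0.95, with edgeR adjusted p of 0.0696, 0.207 and 0.0573), and let-7d with library size alone (-1.03, 0.0697).

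The opposite (3p) arms of the let-7 hairpins were not lower in Exe BAT where they could be tested. Of 12 such arms, 3 had enough BAT reads to be tested, and 2 rose. They were let-7c-2-3p and let-7a-1-3p. Their values are identical in every library, so they count as 1 measurement: 16, 10 and 3 reads in Sed BAT and 32, 50 and 41 in Exe BAT, a log2 fold change of 2.01 ± 0.39 (SE, edgeR adjusted p = 0.0107). let-7d-3p had 94, 123 and 58 reads in Sed BAT and 136, 194 and 172 in Exe BAT (log2 fold change 0.78 ± 0.27, SE, edgeR adjusted p = 0.0630), where its guide arm stood at -0.58. In plasma let-7d-3p was the 1 arm tested, with 59 and 941 Sed reads against 14873 and 7446 Exe reads, and its log2 fold change of 4.35 ± 1.37 (SE) had an edgeR adjusted p of 0.0967.

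Mature miRNAs of clusters that hold let-7 genes, thought to share primary transcripts with them, were also examined. No primary transcript was measured. Of 11 listed, 5 were tested in BAT and none passed the threshold: miR-99a-5p (log2 fold change -0.01 ± 0.23), miR-100-5p (-0.10 ± 0.31), miR-125b-5p (-0.19 ± 0.25), miR-125a-5p (0.30 ± 0.32) and miR-99b-5p (0.48 ± 0.24, SE). Their median was -0.01. The ratio of let-7e-5p to miR-99b-5p reads, chosen after the values were seen, was 0.654, 0.802 and 0.471 in Sed BAT and 0.183, 0.351 and 0.285 in Exe BAT, without overlap. let-7c-5p over miR-99a-5p went from 1.25, 2.09 and 0.846 to 0.561, 0.486 and 0.317, again without overlap, with the limit that let-7c also comes from chromosome 15. The ratio of let-7e-5p to miR-125a-5p was also lower in Exe BAT without overlap, with means of 7.78 in Sed and 4.03 in Exe. In plasma that ratio overlapped, since Exe replicate 1, at 1.29, lay below Sed replicate 2. The ratios to miR-99b-5p and miR-99a-5p were higher in Exe plasma without overlap. There let-7e-5p over miR-99b-5p was 0.0107 and 0.0157 in Sed and 0.194 and 0.201 in Exe, and let-7c-5p over miR-99a-5p was 0.739 and 1.35 in Sed and 19.6 and 38.5 in Exe. In plasma 5 neighbours were tested and none passed, from -1.99 ± 0.86 for miR-99b-5p to 2.02 ± 1.74 for miR-125b-5p (SE).

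Outside the family, the miRNAs most like it in BAT were found by the root mean square distance between centred log2(CPM + 1) profiles over the 6 libraries, set against the summed family. Of 190 candidates the nearest 5 were miR-30e-5p (0.218), miR-34a-5p (0.218), miR-181b-5p (0.228), miR-20a-5p (0.233) and miR-1198-5p (0.234). Among members let-7f-5p was nearest to the sum (0.0653), and let-7c-5p and let-7g-5p were farthest (both 0.340). In plasma, over 4 libraries and 173 candidates, the nearest was miR-181a-5p (0.225), followed by miR-92a-3p (0.634), miR-26a-5p (0.641), miR-26b-5p (0.667) and miR-23b-3p (0.683). The members lay between 0.436 (let-7f-5p) and 1.24 (let-7g-5p) from the plasma sum, so miR-181a-5p was nearer to it than any member. No p is given for these distances, since all profiles share the same libraries and scaling factors.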

How the data were processed

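For each vesicle source the authors deposited a table of read counts of mature miRNAs in every library, per the file headers. The BAT table as deposited also holds RPM values, used only to recover library totals. The deposited plasma table also holds a second whole number, treated as a count of unstated meaning and used only as an alternative. The submitters' processing notes list Bowtie 0.12.2, mm8 and mm9 without saying how each was used. The sources used here do not give trimming, the miRNA annotation release or counting rules.

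Read counts were tested as deposited with edgeR 4.0.16 (quasi-likelihood test, TMM factors, filterByExpr, Benjamini-Hochberg adjustment over all miRNAs tested, threshold 0.05) in R 4.3.3. Exe was compared with Sed within each source, and a joint fit of the 4 groups gave the source comparisons and the difference of effects. The SE is the size of the log2 fold change over the square root of F. Alternatives were DESeq2 1.42.0, limma-voom (limma 3.58.1), other scalings and filters (none, or a mean of at least 50 counts), the replicate number as a block and leaving out each library. Limma-voom with 1 spread per source and, for shares, the second plasma values were chosen after seeing the data. The edgeR fits within each source were tested on simulated data with the same fixed spread for every miRNA. That spread was not taken from these libraries, and the joint fit was not tested in this way.

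The members and the lists (3p arms, cluster neighbours, and brown fat, red cell, liver, leukocyte, muscle, and endothelial and platelet markers) were chosen with earlier results of these data known. All 9 members were named in every comparison, with the called members of the first 2 lists and the 5 miRNAs nearest in profile. Liver markers took 0.112% to 0.238% of BAT and 1.88% to 6.62% of plasma reads, muscle markers 2.51% to 5.59% and 0.207% to 0.683%, and endothelial and platelet markers 5.95% to 11.5% and 2.41% to 5.50%.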

Additional observations from a re-analysis of the deposited data

Results flagged for a closer look

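The exercise effect differed between BAT and plasma vesicles by the test of the difference for 3 members. The BAT effect minus the plasma effect (log2) was -4.37 for let-7c-5p, -4.26 for let-7b-5p and -2.99 for let-7a-5p in the joint fit of both sources. The separate fits of each source have their own scaling factors, and their effects do not subtract to these values. They gave -1.61, -1.52 and -1.10 in BAT, which passed the threshold, and 3.26, 3.03 and 2.50 in plasma, which did not (edgeR adjusted p = 0.0899 for each). Over the alternatives the difference ranged from -5.61 to -3.38 for let-7c, from -5.45 to -3.18 for let-7b and from -4.24 to -2.09 for let-7a.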

How the results depend on the processing

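With 3 and 2 libraries per group, counts of calls moved more than directions. In BAT all 9 members lay below 0 in all 15 alternatives. Calls among all miRNAs (45) became 21 with a mean of at least 50 counts, 25 with the replicate block and 16 to 56 without 1 library. Members called (6) became 2 with totals implied by RPM and 1 to 6 without 1 library, 1 without Exe BAT replicate 3 and 2 without Exe BAT replicate 1. In plasma, calls (0) became 57 with DESeq2, 35 with limma-voom, 4 with upper-quartile factors, 10 with library size alone, 17 with no filter, 29 with a mean of at least 50, 7 with the replicate block, 11 with the second values and 3 to 27 without 1 library, where the lone library is assumed to vary like the other group. Members called there (0) became 2 with DESeq2 and limma-voom, 3 with library size, no filter, a mean of at least 50, the replicate block and the second values, and 1 to 3 without 1 library. Upper-quartile factors turned let-7d (-0.23), let-7f (-0.48), let-7i (-0.58) and miR-98 (-0.55). For Sed BAT against plasma, calls (99) became 150 with DESeq2, 152 with library size and 77 to 149 without 1 library, and members (5 lower) became 0 lower and 4 higher with library size, 2 lower and 2 higher with a mean of at least 50, 3 with a spread per source and 2 to 7 without 1 library. Library size turned let-7a (1.55), let-7c (1.71), let-7d (1.005), let-7f (1.11) and miR-98 (0.32), and let-7c ranged from -1.48 to 0.054 without 1 library, above 0 without Sed plasma replicate 2. For Exe, calls (156) became 82 with a mean of at least 50, members (8) became 7 with upper-quartile factors and that mean and 6 with library size, and let-7e became 0.43, 0.56 and 0.33 with upper-quartile factors, library size and that filter, and -1.32 to 0.52 without 1 library. For the difference of effects, calls (68) became 45 with the replicate block, 25 with a spread per source and 36 to 119 without 1 library (119 without Exe plasma replicate 1), and members (3) became 7 with library size and 3 to 5 without 1 library. Upper-quartile factors put let-7d, let-7i and miR-98 at 0.10, 0.072 and 0.11, and library size put let-7g at -0.17. Mean family shares became 25.8%, 14.0%, 32.1% and 48.8% (Sed BAT, Exe BAT, Sed plasma, Exe plasma) without the 3 most abundant other miRNAs, 26.2% and 44.9% in plasma without miR-451a, and 16.3% and 32.7% with the second values. Whether libraries with the same replicate number were prepared together is not known. In BAT the same-number correlations of deviations from the group mean were 0.00, -0.08 and -0.12. Those between different numbers ran from -0.04 to 0.17, and with so few libraries these values do not settle it. In plasma, with 2 libraries per group, every such correlation has the same size (0.08) by construction and says nothing about pairing. The cause of the changes between alternatives was not tested.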
